A study of Mus musculus with 6 samples.

Results

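The replication-dependent histone genes encode the core histones H2A, H2B, H3 and H4 and the linker histones H1 that package newly made DNA, and their transcripts were examined in RNA-seq libraries of V6.5 mouse embryonic stem cells (ESCs). Members were all RefSeq rows of the deposited tables whose accession mapped to a symbol of the Hist1, Hist2, Hist3 or Hist4 clusters or to its renamed form. There were 73 such rows for 66 genes, among 26073 RefSeq rows in all, and 7 of the genes had rows at 2 places. The rows of Hist1h2bq and Hist1h2br had the same coordinates and counts. The genes comprised 6 H1, 17 H2A, 19 H2B, 12 H3 and 12 H4 genes. The Hist1 cluster on chromosome 13 held 52 of them, the Hist2 cluster 10, the Hist3 cluster 3 and the Hist4 locus 1.

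The study compared ESCs with reduced levels of the cohesin subunit SMC1, the condensin II subunit CAPH2 or SMC2, a subunit of both condensin complexes, with ESCs that received a hairpin against GFP. All cells were V6.5 ESCs of C57BL/6-129 background, infected with lentiviral shRNA, selected with puromycin and grown off feeders for 1 passage. GFP and SMC1 had 1 library each, and CAPH2 and SMC2 had 2 libraries each, every one with its own hairpin. Synthetic ERCC RNAs were added in proportion to cell number before TruSeq library preparation. No p-value can therefore be given against GFP, and the 95% intervals below cover counting error only. With 2 hairpins in place of cultures or clones, the tests between CAPH2 and SMC2 measure only the spread between these libraries.

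Replication-dependent histone mRNAs are the metazoan mRNAs that normally end without a poly(A) tail. Their 3′ end is a conserved stem-loop bound by SLBP, formed by a cut that the U7 snRNP directs, and their production is tied to S phase. TruSeq libraries select RNA by its poly(A) tail, so counts in these rows come from what that selection retained. A level here is accordingly not a measure of total histone mRNA.

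The stem-loop is shown for members with the most counts because it marks the normal end of the message. The search allowed GG, any 3 bases, TTT, any 2 bases, A, any 3 bases and CC with complementary triplets, up to 300 bases past the annotated end. It matched 69 of 73 rows, and the 4 without a match included Hist2h2be. Capitals mark the stem-loop, letters are DNA of mm9 read 5′ to 3′ on the gene's strand, and positions are those of the capitals.
Hist3h2a, chr11:58768674-58768689, + strand: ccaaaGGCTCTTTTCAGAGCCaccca
Hist3h2ba, chr11:58762851-58762866, + strand: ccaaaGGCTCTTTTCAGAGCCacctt
Hist1h2bc, chr13:23776516-23776531, + strand: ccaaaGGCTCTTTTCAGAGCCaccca
Hist1h1c, chr13:23831381-23831396, + strand: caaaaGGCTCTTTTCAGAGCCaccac
Hist1h1a, chr13:23856261-23856276, + strand: ccaacGGCTCTTTTCAGAGCCaccaa
Hist1h4i, chr13:22132835-22132850, - strand: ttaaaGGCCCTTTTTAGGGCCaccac

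The annotated rows differed in how far they ran past this point. Hist1h1c ran 839 bases past it, Hist3h2a 1487, Hist3h2ba 166 and Hist1h4i 150, and the spliced Hist1h2bc row ended 7818 genomic bases downstream, while Hist1h1a ended 7 bases after. Rows that ran more than 100 bases past (a threshold chosen after the values were seen) numbered 19, at 16 loci, and held 66.6% of all member counts. Another 50 rows, at 47 loci, ended near or before the stem-loop and held 25.8%. The rows that ran past were longer, with a median exonic length of 1560 bases against 393, and their median level was 0.212 RPKM against 0.306 RPKM. Counts thus lay mostly in the long rows. The medians count some loci through more than 1 row, so no difference in level per length is read from them. The highest level was 7.11 RPKM among rows that ran past and 1.57 RPKM among those that ended near or before.

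Most members were close to the limit of detection. Only 7 of the 73 rows, 9.59%, had a mean of at least 20 counts over the 6 libraries, against 65.9% of all RefSeq rows, and Hist1h2bf was at 0 throughout. The median level of a member row was 0.310 RPKM, and the highest was Hist1h4i at 7.11 RPKM. By family, the median was 0.551 RPKM for H1, 0.380 for H2A, 0.201 for H2B, 0.252 for H3 and 0.456 for H4. Reads of near-identical copies were also lost, because the alignment kept only reads with at most 2 matches in the genome. In 50 of the 73 rows more than 50% of 32-base runs occurred at more than 2 places, and 22 rows had no run found at a single place. The H1 genes, whose sequences diverged, had a median of 0.476% of such runs, compared with 84.0% for H3 and 84.3% for H4. Low values in core histone rows with mostly repeated runs therefore cannot be told apart from lost reads. The runs are only a rough guide to that loss. Hist1h3b and Hist1h3d, with 100% of such runs, still held 15 and 9 counts over all libraries, and Hist1h2bj, with 99.4%, held 41. Core histone rows with about 89.0% or more of their runs at a single place lay between 0.389 RPKM (Hist2h4) and 2.04 RPKM (Hist3h2a). That bound is the share of Hist2h4 itself. Below it, mostly single-place rows were lower at Hist1h2aa (78.6%, 0.021 RPKM), Hist1h2be (75.2%, 0.181) and Hist1h2ac (72.8%, 0.127), and higher at Hist3h2ba (62.0%, 2.34). Low values were thus not confined to rows with mostly repeated runs. Levels are compared between libraries rather than between families.

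**Figure D1:**
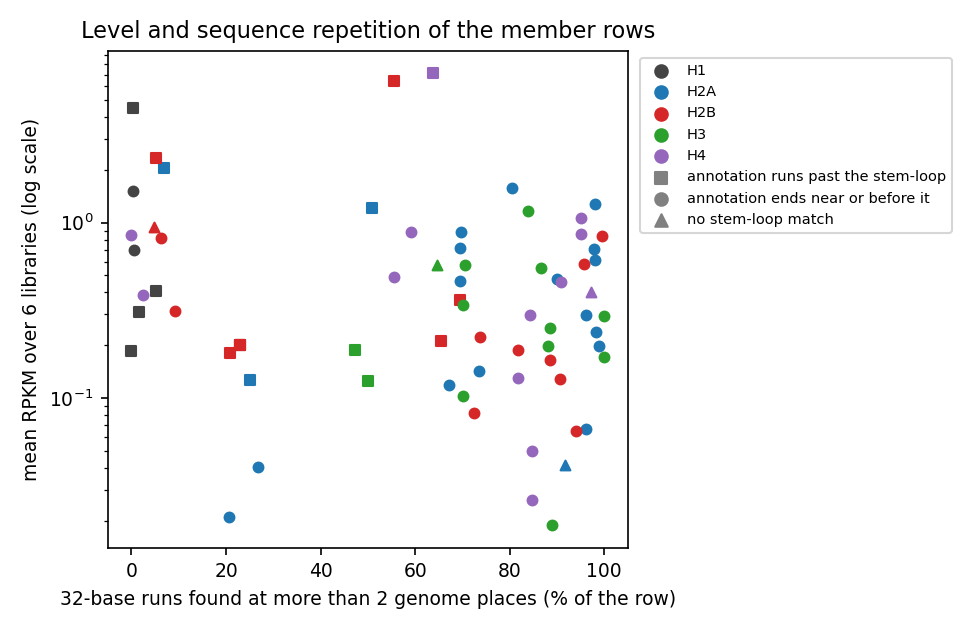
Mean RPKM over 6 libraries (log axis) against the percentage of each row's 32-base runs found at more than 2 genome places, 1 symbol per member row, coloured by family and shaped by where the annotation ends relative to the stem-loop. H1 rows lie at the left, with at most 5.16% of such runs, and the rows above 4 RPKM all run past the stem-loop; the row at 0 is not drawn.

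Hist1h1c, which encodes the linker histone H1.2 and is now H1f2, gathered the most counts. It stood at 4.32 RPKM in GFP, 5.80 in SMC1, 4.67 and 3.95 in the CAPH2 libraries, and 3.98 and 4.37 in the SMC2 libraries. SMC1 was the highest of the 6 libraries, at 134% of GFP by counts with an interval of 107 to 169%. The log2 change was 0.43 in SMC1, 0.00 in CAPH2 and -0.05 in SMC2, and with ERCC scaling 1.29, 0.36 and 0.55.

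Hist1h2bc, an H2B gene, was also highest in SMC1. Its levels were 6.00 RPKM in GFP, 8.57 in SMC1, 6.01 and 6.71 in CAPH2, and 6.04 and 5.38 in SMC2. SMC1 reached 143% of GFP (interval 108 to 189%) and lay above the other 5 libraries. With ERCC scaling its SMC1 log2 change was 1.38. Among the 7 rows with a mean of at least 20 counts, Hist1h2bc and Hist1h1c were the 2 that then passed 2-fold. That scaling moved the median of all rows by 0.86 in SMC1, and the share of all rows that passed was not computed. Hist1h4i, an H4 gene and the member with the highest level, was at 7.27 RPKM in GFP, 7.85 in SMC1, 7.19 and 5.84 in CAPH2 and 6.86 and 7.66 in SMC2. All 3 of its intervals against GFP spanned 100%.

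Hist3h2a, an H2A gene, was highest in GFP. It was at 3.27 RPKM in GFP, 1.67 in SMC1, 1.66 and 1.76 in CAPH2 and 1.52 and 2.39 in SMC2. No knock-down library reached the GFP level. SMC1 was at 51.2% of GFP (interval 37.5 to 69.3%), CAPH2 at 52.2% (41.0 to 66.3%) and SMC2 at 59.1% (46.9 to 74.5%). With ERCC scaling CAPH2 was at 63.7% of GFP (50.1 to 81.0%), whereas the SMC1 interval (68.2 to 126%) and the SMC2 interval (71.2 to 113%) spanned 100%, and the second SMC2 library was above GFP by 0.11 on the log2 scale.

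Hist2h2be, an H2B gene of the Hist2 cluster, was at 1.26 RPKM in GFP, 0.616 in SMC1, 0.835 and 1.06 in CAPH2 and 0.966 and 0.954 in SMC2. SMC1 was the lowest library, at 48.9% of GFP (interval 31.0 to 75.5%), while the CAPH2 and SMC2 intervals spanned 100%. With ERCC scaling the SMC1 log2 change of -1.03 became -0.17, which no longer passed 2-fold, and the SMC2 change of -0.39 became 0.21.

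Hist3h2ba, the H2B neighbour of Hist3h2a in the Hist3 cluster, was at 3.22 RPKM in GFP, 1.85 in SMC1, 1.18 and 2.06 in CAPH2 and 2.58 and 3.16 in SMC2. The CAPH2 libraries were at 48.7% of GFP (interval 31.0 to 76.5%), and SMC1 at 57.3% (32.6 to 97.9%). The log2 change in SMC1 was -0.80 and turned to 0.06 with ERCC scaling, whereas CAPH2 stayed lower at -0.76. Hist1h1a, which encodes H1.1, ranged from 1.14 RPKM in the second CAPH2 library to 2.18 RPKM in GFP, and CAPH2 was at 58.4% of GFP (36.1 to 94.6%), or 71.3% (44.2 to 116%) with ERCC scaling.

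Members below a mean of 20 counts had wide intervals. The H2A gene Hist1h2ag was at 2.26 RPKM in GFP, 1.76 in SMC1, 0.997 and 1.46 in CAPH2 and 1.31 and 1.66 in SMC2, with GFP the highest. Hist1h1d, which encodes H1.3, had 28 counts in GFP, 25 in SMC1, 17 and 10 in CAPH2 and 9 and 26 in SMC2, so the SMC2 hairpins lay on either side of the CAPH2 libraries. The other members among the 12 highest by RPKM were the first of 2 Hist1h2ap rows, between 0.791 and 1.62 RPKM, Hist1h2ae, between 0.609 and 1.60, Hist1h3c, between 0.664 and 1.74, and Hist1h4b, between 0.341 and 1.73. For these 4 rows the highest library was not GFP, and each rested on fewer than 24 counts per library. The second Hist1h2ap row was highest in GFP, at 1.06 RPKM, and CAPH2 was at 22.7% of GFP (interval 5.11 to 81.3%) on 9 counts in GFP and 3 and 1 in CAPH2. The H2A gene Hist1h2ab had 20 counts in SMC1 and between 5 and 9 in the other 5 libraries.

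**Figure D2:**
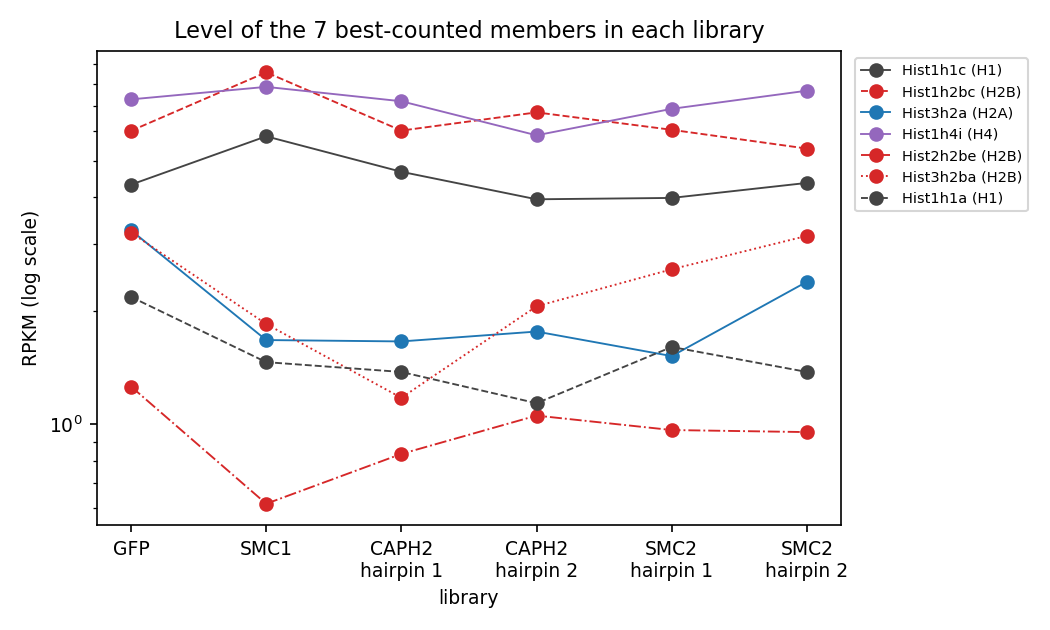
RPKM (log axis) in each of the 6 libraries for the 7 member rows with a mean of at least 20 counts; each line joins 1 gene's values and carries no error bar. Hist3h2a, Hist3h2ba, Hist2h2be and Hist1h1a are highest in GFP, and Hist1h1c, Hist1h2bc and Hist1h4i are highest in SMC1.

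Read over these 7 rows, few members passed a 2-fold change, and the shares of all rows were small in the condensin comparisons. At a log2 change of 1 or more, 0 of 7 rows passed in SMC1, where 10.9% of all 17176 rows did, 0 in CAPH2 (1.48% of all rows) and 0 in SMC2 (0.937%). At -1 or less, 1 of 7 passed in SMC1, Hist2h2be (7.76% of all rows), 0 in CAPH2 (0.489%) and 0 in SMC2 (0.349%). Median log2 changes of the 7 were -0.57 in SMC1, -0.42 in CAPH2 and -0.17 in SMC2, beside 0.02, 0.00 and -0.01 over all rows. The SMC1 median was 0.11 over the 5 rows with a mean of at least 50 counts and also 0.11 with no filter on low counts, so its sign depended on the filter. Scaling to ERCC counts turned the SMC1 and SMC2 medians to 0.29 and 0.43 and left CAPH2 at -0.12; that scaling moved the median of all rows by 0.86 in SMC1, 0.63 and -0.05 in CAPH2 and 0.64 and 0.57 in SMC2. GFP was the highest library for 4 of the 7 rows (29.5% of all rows) and the lowest for 0 (28.7%). SMC1 was the highest for 3 (37.6%) and the lowest for 1 (35%). The 3 comparisons share the single GFP library, so a high GFP value lowers all of them at once.

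**Figure D3:**
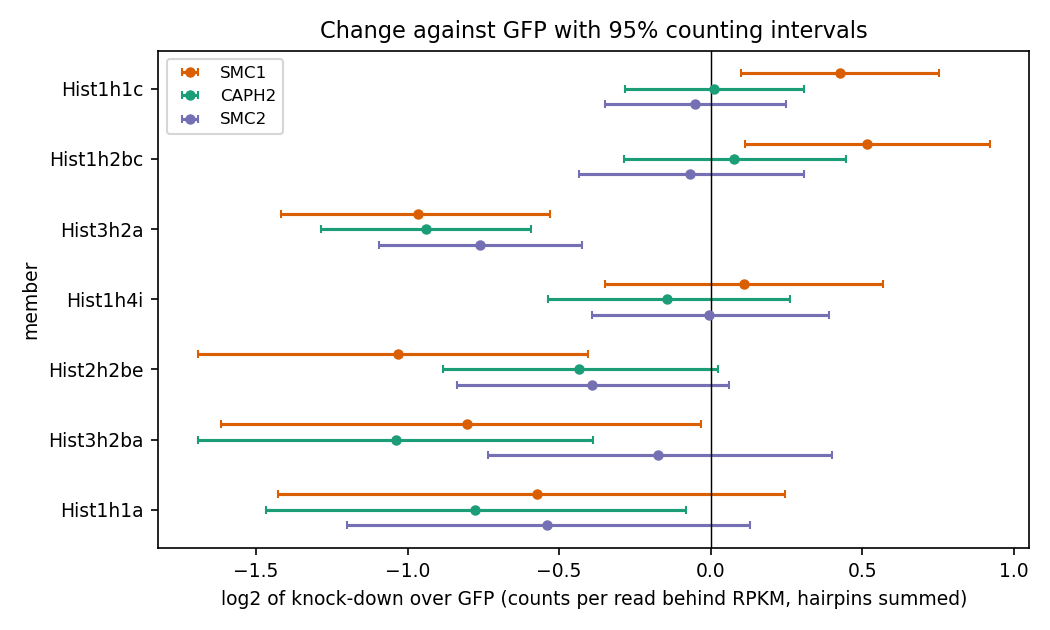
Log2 of each knock-down over GFP, from counts per read behind RPKM with hairpins summed, for the 7 best-counted member rows; points are estimates and bars are exact 95% counting intervals. Hist3h2a lies left of 0 in all 3 comparisons, and Hist1h1c and Hist1h2bc lie right of 0 in SMC1.

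Summed over 67 loci and divided by the reads behind RPKM, member counts came to 44.6 CPM (counts per 1000000 reads) in GFP, 42.8 in SMC1, 34.3 and 33.3 in CAPH2, and 34.8 and 41.1 in SMC2. The CAPH2 libraries were the lowest of the 6, with the first SMC2 library close to them. CAPH2 was at 75.9% of GFP (interval 69.96 to 82.5%), SMC2 at 85.2% (78.3 to 92.0%) and SMC1 at 96.1% (87.4 to 106%). Scaled to ERCC counts these became 95.8%, 129% and 175%, so the directions of SMC2 and SMC1 reversed. The CAPH2 value averages 2 libraries that ERCC scaling shifted by 0.63 and -0.05 on the log2 scale. On that scale the first CAPH2 library lay above GFP and the second below, so their summed change had no common direction. Of the 5 families, the summed H2A genes showed the widest difference, at 11.7 CPM in GFP, 9.88 in SMC1, 6.90 and 7.38 in CAPH2 and 6.61 and 9.31 in SMC2, and Hist3h2a alone gave 140 of their 252 counts in GFP. The H4 genes stood at 5.90 in GFP, 5.36 and 4.73 in CAPH2 and 5.73 and 6.91 in SMC2.

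Per read behind RPKM, both CAPH2 libraries were below GFP in rows of both kinds of end. Rows that ran past the stem-loop summed to 29.0 CPM in GFP and 23.2 and 22.4 in CAPH2. Those that ended near or before it summed to 11.8 in GFP and 8.57 and 7.33 in CAPH2. SMC1 was close to GFP in both, at 29.5 and 11.4 CPM, and the second SMC2 library was at 27.0 and 11.3. ERCC scaling shifted the first CAPH2 library by 0.63 on the log2 scale, which put it above GFP in both. RMRP and RPPH1, the RNA components of RNase MRP and RNase P, also lack a poly(A) tail, and they moved with the libraries. Rmrp counts were 106 in GFP, 45 in SMC1, 2 and 1 in CAPH2, and 39 and 151 in SMC2. Together with Rpph1 they gave 7.85 CPM in GFP and 0.343 and 0.319 in CAPH2, and the second SMC2 library was highest at 11.5. Terc, which also lacks a tail, had 16 counts in GFP and 18 and 28 in CAPH2. The row named Rnu7, which is much longer than the U7 RNA, had 712 counts in GFP and 712 and 575 in CAPH2, or 92.3% of the GFP level in both CAPH2 libraries. Their part in the histone values was not tested.

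**Figure D4:**
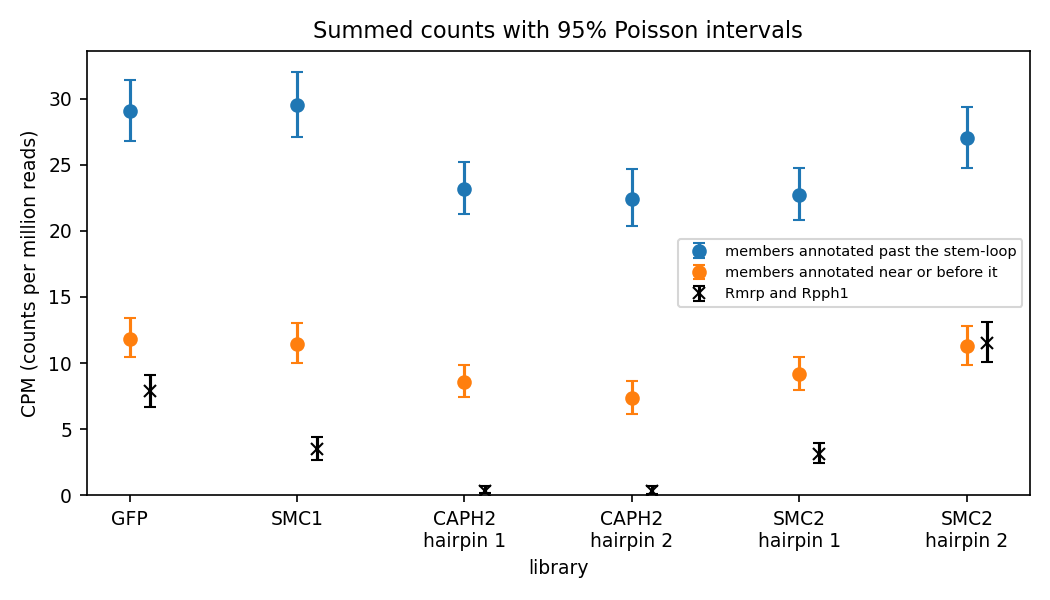
Summed CPM in each library with exact 95% Poisson intervals, for members annotated past the stem-loop, members annotated near or before it, and Rmrp with Rpph1. The CAPH2 libraries are lowest for Rmrp with Rpph1 and for members annotated near or before the stem-loop, while the first SMC2 library also lies low among members annotated past it.

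CAPH2 and SMC2 were the only groups that could be compared by a test, the edgeR quasi-likelihood test with Benjamini-Hochberg adjustment. Of 17 member rows with enough counts 0 were called, beside 1 of 18245 rows (0.00548%), and DESeq2 also called 0 of the 17, beside 5 rows in all. The 17 included the first rows of Hist1h2bq and Hist1h2br, which held the same reads under different names. Leaving out 1 library kept 0 members called, while the calls over all rows ranged from 1 to 403, with 403 without the second CAPH2 library and 30 without the first. At an unadjusted p under 0.05, edgeR gave 1 member, Hist3h2ba, while 3.1% of all rows passed. Hist3h2ba was higher in SMC2 by 0.86 on the log2 scale (SE 0.33; edgeR quasi-likelihood adjusted p = 0.9995). The next lowest p-values were those of Hist2h2bb at 1.09 (SE 0.49), Hist1h1e at 0.75 (SE 0.36), Hist1h3c at 0.70 (SE 0.47) and Hist1h2ae at 0.56 (SE 0.43). Hist2h2bb had 6 and 5 counts in CAPH2 and 14 and 10 in SMC2. It met the minimum of 10 counts in 2 libraries only through SMC2, so its higher SMC2 value partly follows from the filter. For Hist1h1c the difference was -0.04 with an SE of 0.16, so that a difference of 2-fold lay far outside its error, while for members with about 10 counts the SE exceeded 0.4.

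Germline members had at most 9 counts in any library. Hist1h1t, the testis linker histone, had 9 counts in GFP (0.459 RPKM), 0 in SMC1, 6 and 1 in CAPH2 and 3 in each SMC2 library. Hist1h2aa was detected by 1 count in 1 library, and Hist1h2ba by at most 2 counts in any library.

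The replication-independent histone genes, most of which have introns and poly(A) tails and are made throughout the cell cycle, gave far more counts. Of 11 measured, 2 were at a log2 change of -1 or below in SMC1 (7.76% of all rows) and 0 in CAPH2 (0.489%) or SMC2 (0.349%); their medians were -0.52, -0.26 and -0.21. H2afx, which encodes the damage-responsive H2A.X and is made both with a tail and with a stem-loop, was at 397 RPKM in GFP, 139 in SMC1, 190 and 259 in CAPH2 and 226 and 210 in SMC2. It was below GFP in every knock-down library, by log2 changes of -1.52 in SMC1, -0.82 in CAPH2 and -0.87 in SMC2, and remained below with ERCC scaling at -0.65, -0.54 and -0.26. H2afy, the macroH2A1 gene, changed by -1.10 in SMC1, or -0.23 with ERCC scaling. H1f0, the linker histone of resting cells, changed by -0.77, and this became 0.10 with ERCC scaling. H3f3b, one of the genes for H3.3, was at 189 RPKM in GFP and between 192 and 209 RPKM in the other 5 libraries, and H3f3a, which had 38 to 79 counts, at 2.63 RPKM in GFP. Repeated runs were not computed for these genes, so the low H3f3a value cannot be told apart from lost reads. H2afz, the H2A.Z gene, changed by -0.50 in SMC1 and by 0.15 in SMC2, and the former became 0.36 with ERCC scaling.

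Factors that make and process histone transcripts are described from a fixed list. Of 20 genes for histone gene transcription and 3′ end processing, 1 was at a log2 change of 1 or more in SMC1, where 10.9% of all rows were (Pou2f1, which binds the octamer of H2B promoters, at 1.24), 1 was in SMC2 (Pou2f1 at 1.00; 0.937% of all rows) and 0 in CAPH2 (1.48%), and 0 were at -1 or less in any; medians were -0.06 in SMC1, 0.07 in CAPH2 and 0.10 in SMC2. Npat, the coactivator of histone loci, was at 7.56 RPKM in GFP and between 11.0 and 11.7 RPKM in all 5 knock-down libraries. Casp8ap2, which is needed for the histone locus body, was at 8.06 in GFP and between 11.1 and 12.4 in the others. Slbp, the stem-loop binding protein, changed by 0.26 in SMC1, 0.23 in CAPH2 and 0.14 in SMC2. The U7 snRNP protein genes Lsm10 and Lsm11 changed by -0.71 and -0.10 in SMC1, which became 0.16 and 0.77 with ERCC scaling. E2f1, an S-phase transcription factor, changed by -0.91 in SMC1, which became -0.05 with ERCC scaling, while the Pou2f1 change there became 2.11. That scaling moved the median of all rows by 0.86 in SMC1. Among 19 DNA replication genes 0 passed a log2 change of 1 in either direction, 15 were below 0 in SMC1, and the median was -0.28 there. Among these, Cdt1, a replication licensing factor, changed most, by -0.84 in SMC1, which became 0.03 with ERCC scaling. Of 7 histone chaperone genes 0 passed in any comparison, with medians of 0.07, 0.08 and 0.10; Chaf1b, a subunit of the chromatin assembly factor CAF-1, was at -0.75 in SMC1, and Nasp, which binds H1 and H3-H4, was at 0.20.

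**Figure D5:**
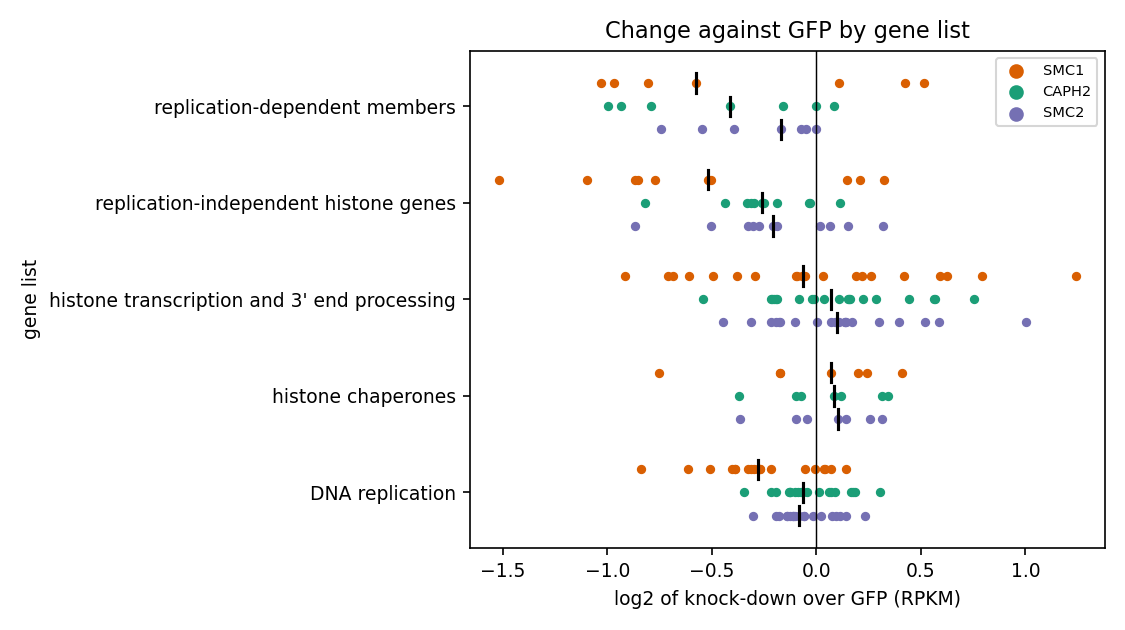
Log2 change against GFP on the RPKM scale, 1 point per gene with a mean of at least 20 counts, in 5 gene lists and 3 knock-downs; black ticks are medians. The replication-dependent members have medians of -0.57, -0.42 and -0.17, and all 7 of them lie below 0 in SMC2.

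Promoters of the members were searched for motifs that the selection did not use. In a RefSeq table of promoters of 250 bases before and 50 after each start (GRCm38.p6), 60 member genes matched. CCAAT, on either strand, occurred in 86.7% of these and in 37.4% of all 32851 promoters. It was found in all H1, H2A, H2B and H3 promoters but in 3 of the 11 H4 promoters (27.3%), below the share of all promoters. TATAAA occurred in 56.7% and 13.6%, and ATTTGCAT, the octamer, in 21.7% and 1.74%, all of the latter in H2A and H2B genes (7 and 6 genes). Some H2A and H2B genes are close neighbours on opposite strands, such as Hist1h2bl and Hist1h2ai, so their promoter windows can overlap. A single site can then be counted for both genes, and the shares are of genes rather than of separate promoters. The promoter of Hist3h2a is shown because that gene had a lower RPKM in every knock-down library than in GFP, with capitals marking the octamer and CCAAT letters on either strand; it lay at chr11:58954435-58954734 of GRCm38.p6 on the + strand.
Hist3h2a promoter: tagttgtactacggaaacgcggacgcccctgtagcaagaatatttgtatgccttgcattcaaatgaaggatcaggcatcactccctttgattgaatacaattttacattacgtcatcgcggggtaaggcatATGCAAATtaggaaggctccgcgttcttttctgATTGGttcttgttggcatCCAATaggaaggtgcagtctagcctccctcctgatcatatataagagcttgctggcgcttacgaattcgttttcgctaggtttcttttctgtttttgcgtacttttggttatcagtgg

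The targeted genes were lower than GFP in their own libraries on the RPKM scale. Smc1a counts were 3080 in GFP and 1098 in SMC1, Ncaph2, the gene of CAPH2, had 5724 in GFP and 1305 and 1742 in CAPH2, and Smc2 had 3049 in GFP and 2255 and 2079 in SMC2. With ERCC scaling Smc1a changed by -0.46 in SMC1 and Ncaph2 by -1.59 in CAPH2, but Smc2 by 0.11 in SMC2. Reads behind the RPKM values ranged from 18823247 to 23324536 per library. Col1a1, a fibroblast marker of feeder cells, was detected in all libraries, and 7 of 9 such markers had enough counts, with a median change of 0.80 in SMC1, 0.42 in CAPH2 and 0.08 in SMC2; the 8 ESC markers had a median of -1.54 in SMC1, and the endoderm, trophectoderm and mesoderm markers one of 1.19. Their part in the histone values was not tested, and fewer cells of a kind cannot be told apart from less RNA per cell.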

How the data were processed

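Per the labels, RNA was spiked with ERCC RNAs by cell number and made into TruSeq libraries. Alignment by the authors used Bowtie and the mm9 genome, reads with more than 2 matches were dropped, and the authors deposited, for each RefSeq row and library, read counts and RPKM values (reads per kilobase of exon, scaled to library reads). The authors' deposited counts and RPKM values were used as given. Accessions were named from RefSeq (72 member rows) or by GENCODE overlap (1 row). Changes against GFP were log2 ratios of RPKM, hairpins averaged, for rows with a mean of at least 20 counts; a change of at least 1 was counted. Intervals were exact binomial (Clopper-Pearson) for ratios and exact Poisson for sums, at 95%. CAPH2 and SMC2 were compared with edgeR 4.0.16 (R 4.3.3; TMM, at least 10 counts in at least 2 libraries), tested on simulated data first, and DESeq2 1.42.0 as an alternative. Members named were the 12 with the highest RPKM, those with the largest changes among members with a mean of at least 50 counts, the 5 lowest p-values, and fixed germline and pathway genes; others named were chosen after their values were seen. Members and lists were chosen with earlier results of these data known.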

Additional observations from a re-analysis of the deposited data

How the results depend on the processing

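Of 109 alternative values, 82 stayed within the limits set for them, 25 moved and 2 reversed. These labels did not count every change of sign as a reversal. The SMC1 median went from -0.57 to 0.11 at settings counted as within the limits. Under ERCC scaling the SMC1 and SMC2 medians also changed sign and were counted as moved. Both reversals of a summed level came from ERCC scaling, which put the summed level at 174.9% of GFP in SMC1 and 129.2% in SMC2, and 95.85% in CAPH2. The CAPH2 value averages 1 hairpin above GFP and 1 below. ERCC scaling also gave medians of 0.29, -0.12 and 0.43 in SMC1, CAPH2 and SMC2, with 2 of the 7 rows at or above 1 and 0 at or below -1 in SMC1. Without a filter on low counts, 8, 4 and 3 members rose to 1 or more and 8, 11 and 8 fell to -1 or less in SMC1, CAPH2 and SMC2. Shares of all rows were not computed at any of the alternative settings for changes against GFP. Counts of members at these settings are therefore not read as a result about the members. A minimum of 1 RPKM in GFP gave 3 members at or below -1 in SMC1 and 1 in CAPH2, DESeq2 size factors 1 in CAPH2, and a pseudocount of 1 gave 0 in SMC1 and a CAPH2 median of -0.22. A mean of at least 50 counts gave a CAPH2 median of -0.16 and turned the SMC1 median to 0.11, as did no filter, within the counting interval of the member at that median. That interval is not a spread of the median itself. Members with at most 50% repeated runs summed to 81.62% of GFP in SMC1. Members that ended near or before the stem-loop, chosen after seeing the data, summed to 67.12% in CAPH2. Leaving out 1 hairpin gave 0 to 1 members at or below -1 in CAPH2 and in SMC2, an SMC2 median of -0.32 to -0.16 and an SMC2 sum of 78.20% to 92.24%. The cause was not tested. With the replicate number as a replicate block, 0 members were called between CAPH2 and SMC2, against 15 rows overall; the correlation of same-numbered libraries was 0.0488 and the numbers are not shown to pair them. Members with few counts limit all of these values.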
